A study of Mus musculus with 8 samples.

Results

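The 200 genes with the brightest probes in untreated AtT20 cells were examined for their level and for their change after treatment with HX630. AtT20 is a line of mouse pituitary corticotroph tumor cells. HX630 is a synthetic ligand that activates the retinoid X receptors. Total RNA was taken from 4 control samples, incubated without HX630, and from 4 samples incubated with 10 μM HX630. All 8 were cells of the same line, held for 48 hr in DMEM with 1% stripped FBS, and each was read on a single-color Agilent mouse array. A level is the log2 processed signal of a probe minus the 75th percentile of the log2 signals on its array, so that a probe at level 0 was as bright as the probe at that percentile. On the control arrays, probes for curated coding transcripts were ranked by their mean level, the brightest probe stood for each gene symbol, and symbols starting with Rpl or Rps were left out. The first 200 of 19224 ranked genes were kept as members. Without that last step, 66 ribosomal protein symbols would have ranked among them, and 14 probes as bright as the members carried no symbol. A probe's brightness also depends on the probe itself, so the order is one of signals and not of transcript numbers.

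Corticotrophs make proopiomelanocortin, the precursor of ACTH, and store the peptides cut from it in dense-core granules. The transcripts that fill such a cell come from the genes of that granule and from housekeeping genes: the enzymes of glycolysis, the respiratory chain, translation factors, actin and tubulin, ubiquitin and chaperones. Some of these housekeeping genes are the usual reference genes of expression studies. The retinoid X receptors are nuclear receptors that pair with other nuclear receptors and switch target genes when a ligand binds.

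The members' control means ran from 8.07 for Aldoa to 5.46 for Pdia6, a 6.1-fold span of signal. All 200 were well above background on all 8 arrays, and no spot was saturated. The last members by rank were Eaf2, Elob and Pdia6, each at 5.46, and the first genes outside were Ctsd at 5.46, Tubb5 at 5.45 and Slc3a2 at 5.45. The edge of the set therefore fell between genes of nearly the same signal. The median SD among the control arrays was 0.082 on the log2 scale, and that among the HX630 arrays was 0.0405.

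The 10 brightest genes were Aldoa, F10, Pomc, Chga, Cfap74, Exosc2, Cox6a1, Slc10a1, 2610028H24Rik and Ppia. Pomc, the hormone precursor, had control levels of 8.13, 8.19, 7.78 and 8.01. Chga, the granule protein chromogranin A, had control levels of 8.09, 8.15, 7.81 and 7.91. Cox6a1, a subunit of cytochrome c oxidase, had control levels of 8.02, 8.04, 7.74 and 7.87. In all 10 genes control arrays 1 and 2 were the higher pair of the 4.

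For several of the brightest symbols, other probes named for the same gene gave a very different signal. The probe of F10, the gene of coagulation factor X, had a control mean of 8.05 ± 0.23 (SD, n = 4), whereas its other probe stood at −6.97 and was well above background on only 1 array. Slc10a1, a bile acid transporter of liver, read 7.90 ± 0.18 (SD, n = 4) with one probe and −5.19 with the other. The same held for Cfap74, at 7.95 against −3.74, and for 2610028H24Rik, at 7.86 against −2.51. Among the 89 members with further probes, the brightest of these was more than 4 log2 units (16-fold) dimmer in 32 and within 1 log2 unit in 26. For those 32 symbols the label of an abundant transcript rests on one of their probes, and the cause of the gap was not tested.

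**Figure D1:**
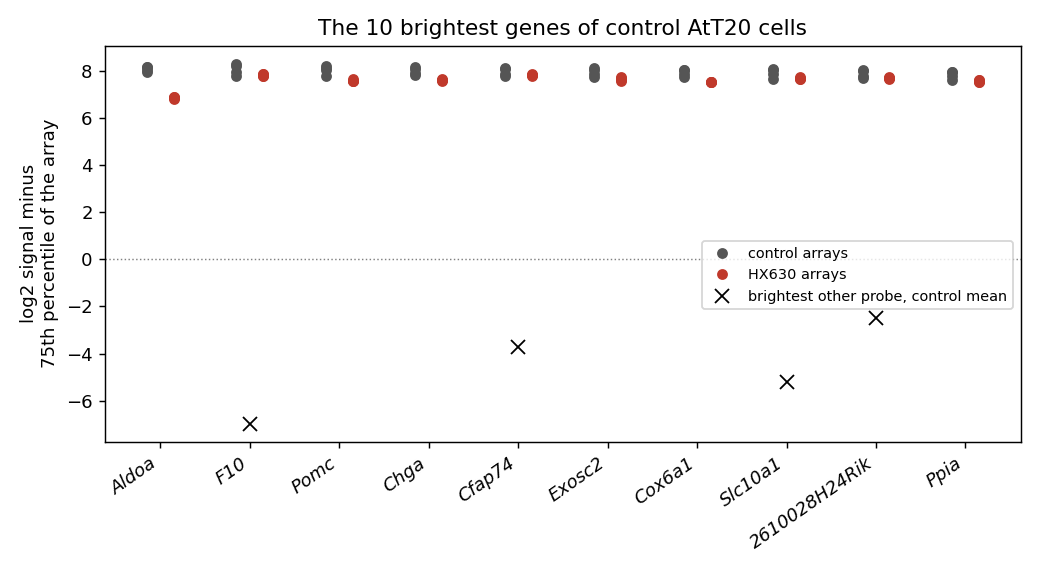
Levels of the 10 brightest genes of control AtT20 cells on each array (vertical axis, log2 signal less the array's 75th percentile). Grey points are the 4 control arrays, red points the 4 HX630 arrays and crosses the control mean of the brightest other probe of the same gene; Aldoa alone stands more than 1 log2 unit lower on the HX630 arrays, and the crosses of F10, Cfap74, Slc10a1 and 2610028H24Rik lie far below their points.

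Markers of the labelled cell type were present. Of 8 corticotroph markers, 7 were detected on all arrays, with Pomc at rank 3, Chga at rank 4 and Pcsk1 at rank 95, and Avpr1b was detected on none. Their summed signal was 526 to 660 times the 75th percentile on the control arrays and 406 to 430 times on the HX630 arrays. The summed signals of the other lists stayed at most 3.36 times that percentile in both groups. Of the genes of other pituitary hormone cells, Gh, Lhb and Nr5a1 were detected on all 8 arrays at control means between −5.08 and −2.33, and Prl, Tshb and Cga on none. In bulk RNA such as this, fewer cells of a kind and less RNA per cell cannot be told apart.

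Before any comparison, 2 features of the arrays bear on bright genes. The 75th percentile of the raw signal was 1335 and 1357 on control arrays 1 and 2, against 1683 to 1899 on the other 6, and after scaling 145 and 188 of the 200 members lay above their own control mean on those 2 arrays, against 12 and 59 on control arrays 3 and 4. In addition, the control arrays were on one slide and the HX630 arrays on another, so that slide and treatment cannot be told apart. The correlation between arrays over the probes tested was 0.9941 to 0.9977 within groups and 0.9781 to 0.9838 between them.

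Most of the brightest genes changed little with HX630, and those that did change mostly fell. With limma, calling genes with adjusted p under 0.01 (Benjamini-Hochberg over all probes tested) and more than 1.5-fold apart, 37 of the 200 members were lower and 2 were higher. Over all 14909 genes tested, 11.2% were called lower and 8.42% higher. The remaining 161 members had log2 fold changes between −0.56 and 0.57, of which 94 were below 0.25 in size. The median log2 fold change (HX630 minus control) of the members was −0.25, with quartiles of −0.45 and −0.11. The median over all genes tested was −0.03, with quartiles of −0.32 and 0.24. Without the fold threshold, 103 members were lower and 9 higher, where 27.2% and 24.2% of all genes were called. The methods' t-test with the same fold threshold gave 37 and 2 members, beside 11% and 8.38% of all genes.

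These counts describe a set picked by its control level, and such a choice by itself favors genes that are lower on the HX630 arrays. When the 200 brightest genes were taken from the HX630 arrays instead, 10 were lower and 13 higher, and when they were taken from the mean of all 8 arrays, 21 were lower and 7 higher. With members chosen on control arrays 1 and 2, and the HX630 arrays compared with control arrays 3 and 4, 34 were lower and 4 higher. With those roles exchanged, 42 were lower and 1 was higher. This split follows the difference in raw signal between those pairs given above, and all the control arrays shared a slide. The general shift of the members depended on the scaling: after quantile normalization their median log2 fold change was 0.0035, with 33 lower and 7 higher, so that the higher share of the calls rose from 5.13% to 17.5%. With the spike-in controls as the scale the median was −0.05, while that of all genes tested moved from −0.03 to 0.16. The larger falls held: 33 of the 37 kept their call after quantile normalization, and the 4 that lost it were Gnas, Hspa5, Lamp1 and Mif.

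**Figure D2:**
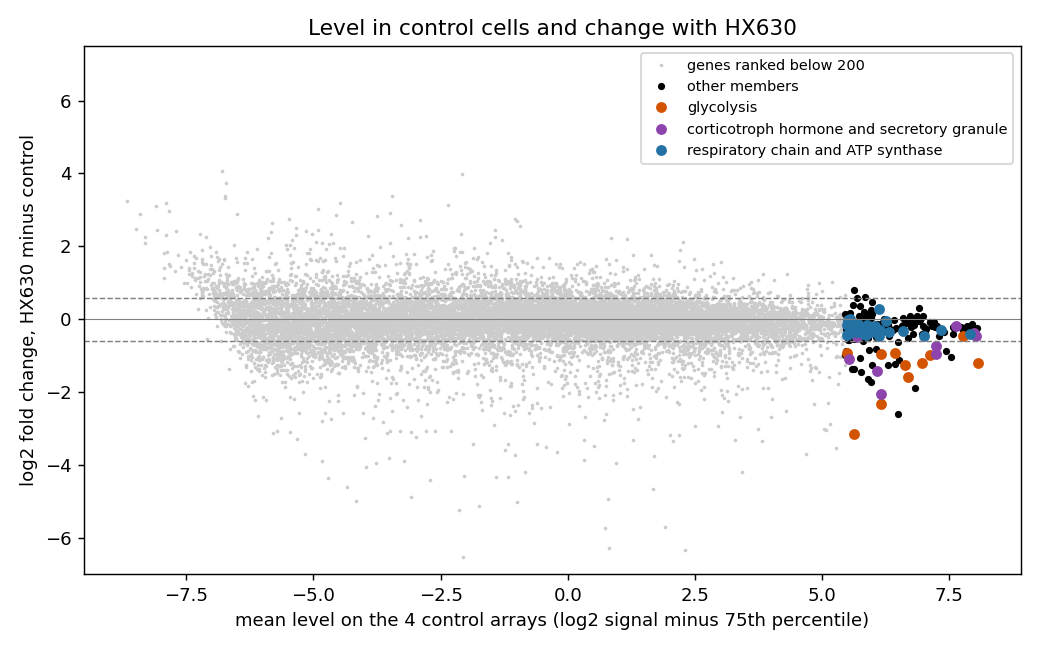
Log2 fold change with HX630 (vertical axis, HX630 minus control) against the mean level on the 4 control arrays (horizontal axis) for the genes tested. Grey points are genes ranked below 200, black and colored points the members, and dashed lines the 1.5-fold threshold; the glycolysis members lie below the lower line except for Gapdh, while the respiratory chain members lie between the lines.

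In glycolysis, 10 of the 11 members fell and none rose, with a median log2 fold change of −1.20. Aldoa, the aldolase of the pathway and the brightest gene of all, had levels of 8.14, 8.18, 7.95 and 8.01 on the control arrays and 6.88, 6.85, 6.89 and 6.80 on the HX630 arrays. It fell by 1.21 on the log2 scale (SE 0.058, adjusted p = 1.42e-06) to 43.1% of its control signal, and its rank moved from 1 to 34. The groups did not overlap.

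Pgk1, a phosphoglycerate kinase that forms ATP, had levels of 6.60, 6.78, 6.75 and 6.66 in control cells and 5.23, 4.98, 5.19 and 5.00 with HX630. It fell by 1.60 (SE 0.072, adjusted p = 1.09e-06), or 3.02-fold. Slc16a3, which carries lactate out of the cell, had 6.06, 6.24, 6.20 and 6.17 against 3.85, 3.74, 3.94 and 3.80, a 5.04-fold decrease (adjusted p = 1.22e-07), and its other probe changed by −2.22. Both genes left the 200 brightest, Pgk1 for rank 243 and Slc16a3 for rank 796.

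Eno3, the enolase best known from muscle, showed the largest fall among the members. Its control levels were 5.68, 5.71, 5.55 and 5.60, and its HX630 levels were 2.81, 2.37, 2.36 and 2.35, with the first array higher than the other 3. The decrease was 8.96-fold (log2 fold change −3.16, SE 0.109, adjusted p = 3.72e-07), and the rank went from 158 to 2400. Eno1, the widely expressed enolase, changed by −1.27, and the symbol Eno1b, a near-identical copy of Eno1 whose signal may be shared with it, by −1.11.

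Other enzymes of the pathway fell as well. Ldha, which converts pyruvate to lactate, had 6.96, 7.22, 7.12 and 7.18 in control cells and 6.01, 6.09, 6.28 and 6.22 with HX630, and thus 51.0% of the control signal (adjusted p = 2.26e-05). The log2 fold changes of Gpi1, Tpi1, Pgam1 and Pkm were −1.20, −0.95, −0.93 and −0.93. Gapdh was the exception, with 7.88, 7.93, 7.58 and 7.70 against 7.30, 7.29, 7.34 and 7.32. Its groups did not overlap, but its change of −0.46 (adjusted p = 0.00148) was below the fold threshold; as the mean of all its probes it was −0.82 and passed. Over the 23 tested genes of the whole list, 18 fell and none rose, with a median of −0.97. Over all genes tested, 11.2% were called lower and 8.42% higher. The 10 calls among the members were made under each of the 6 other scalings and corrections, with medians from −1.20 to −0.93.

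The promoters of some of these genes are shown to set the letters before the start sites beside the changes; short words were counted in them. RefSeq promoters (GRCm38.p6, 250 bases before to 50 after each start, both strands searched) were found for 171 of the 200 members, 213 promoters in all. The word ACGTG, the core of the E-box CACGTG and of sites bound by hypoxia-inducible factors, was added to the search after the changes were seen. It was in 34.3% of the members' promoters and in 19.6% of all 32851 promoters, and in 54.9% of the 51 promoters of members that fell. By promoter it was in 47.1% for glycolysis members, 54.5% for members of the hormone and granule list and 33.3% for respiratory chain members. Counted by gene, 7 of 11 glycolysis members had it in at least 1 promoter. So did 24 of the 35 fallen members with a promoter and 5886 of all 27025 genes. The word GGGCGG, the GC box, was in 57.3% of the members' promoters and 35.7% of all, CCAAT in 39.9% and 37.4%, and TATAAA in 13.1% and 13.6%. In the promoters of members that fell, GGGCGG stood in 64.7%, CCAAT in 27.5% and TATAAA in 5.88%. A match describes these letters and does not show that a factor binds there. In the 3 sequences below, from the gene with the second largest fall and from the glycolysis genes Ldha and Pgk1, capitals mark each ACGTG on either strand. In the promoter of Bnip3 (chr7:138909457-138909756, minus strand) it forms a CACGTG whose first base lies 108 bases before the start; in that of Ldha (chr7:46845554-46845853, plus strand) the capitals begin 145, 48 and 34 bases before the start, and a second Ldha promoter in the table had none; in that of Pgk1 (chrX:106186850-106187149, plus strand) they begin 150 and 131 bases before it.
Bnip3: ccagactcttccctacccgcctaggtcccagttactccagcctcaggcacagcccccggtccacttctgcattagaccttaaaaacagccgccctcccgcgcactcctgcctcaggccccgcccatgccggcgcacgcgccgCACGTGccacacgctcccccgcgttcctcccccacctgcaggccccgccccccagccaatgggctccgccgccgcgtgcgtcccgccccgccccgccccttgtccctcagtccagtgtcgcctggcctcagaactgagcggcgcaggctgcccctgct
Ldha: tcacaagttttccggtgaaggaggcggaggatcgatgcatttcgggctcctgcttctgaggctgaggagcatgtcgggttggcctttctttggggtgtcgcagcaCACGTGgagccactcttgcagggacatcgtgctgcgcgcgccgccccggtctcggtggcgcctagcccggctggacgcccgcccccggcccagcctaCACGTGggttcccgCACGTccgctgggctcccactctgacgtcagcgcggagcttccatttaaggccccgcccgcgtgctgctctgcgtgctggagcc
Pgk1: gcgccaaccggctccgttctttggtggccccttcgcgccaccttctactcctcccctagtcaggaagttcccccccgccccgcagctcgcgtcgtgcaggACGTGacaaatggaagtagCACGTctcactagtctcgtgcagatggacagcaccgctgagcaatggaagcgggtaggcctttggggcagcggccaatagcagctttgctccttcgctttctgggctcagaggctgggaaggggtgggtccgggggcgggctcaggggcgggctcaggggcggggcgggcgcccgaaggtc

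Among genes of the hormone and its secretory granule, 5 of the 9 members fell and none rose, with a median of −0.73. The hormone precursor itself stayed bright. Pomc went from 8.13, 8.19, 7.78 and 8.01 to 7.54, 7.55, 7.63 and 7.56, or 73.0% of the control signal. The groups did not overlap and the adjusted p was 0.00241, but the 1.37-fold difference was below the fold threshold. Chga behaved alike, with 7.54, 7.59, 7.66 and 7.62 on the HX630 arrays and a log2 fold change of −0.39 (adjusted p = 0.00329), and Chgb, or chromogranin B, had −0.19 with overlapping groups. The promoter of Pomc (chr12:3954695-3954994, plus strand) is shown as that of the cell's own hormone. Its TATAAA, in capitals, begins 25 bases before the start. It also holds the letters CACGT, which are ACGTG on the other strand and are left in lower case here.
Pomc: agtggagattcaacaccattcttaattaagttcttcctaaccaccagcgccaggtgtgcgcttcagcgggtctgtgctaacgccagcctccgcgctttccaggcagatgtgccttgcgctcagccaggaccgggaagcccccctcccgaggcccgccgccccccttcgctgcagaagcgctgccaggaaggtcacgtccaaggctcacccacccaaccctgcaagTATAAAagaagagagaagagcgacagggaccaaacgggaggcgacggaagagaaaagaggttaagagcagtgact

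The 5 called members of this list were Pcsk1, Scg2, Scg5, Cpe and Gnas. Pcsk1, the prohormone convertase that cuts proopiomelanocortin, had levels of 6.23, 6.14, 6.07 and 6.18 in control cells and 4.19, 4.07, 4.01 and 4.11 with HX630. It fell to 24.0% of the control signal (log2 fold change −2.06, SE 0.0523, adjusted p = 1.26e-07) and from rank 95 to 700. Scg2, the granin secretogranin II, had 6.03, 6.16, 6.04 and 6.07 against 4.79, 4.61, 4.63 and 4.62, a 2.67-fold decrease. In both genes every HX630 array was below every control array.

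Scg5, which encodes the chaperone 7B2 of another convertase, changed by −1.09 (adjusted p = 6.63e-07). Cpe, the carboxypeptidase that trims the cut peptides, changed by −0.96, and the brightest of its other probes by −0.87. Gnas, the stimulatory G protein subunit below the receptor for CRH, changed by −0.73 with the member probe. The brightest of its other probes changed by −0.29, so these probes differed in size though not in direction. Resp18, a protein of endocrine granules, changed by −0.49 (adjusted p = 0.000103), below the fold threshold. Over the 37 tested genes of the list, 13 fell and 6 rose, with a median of −0.33, where 11.2% and 8.42% of all genes did. After quantile normalization or with spike-in scaling 4 members were called in place of 5.

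**Figure D3:**
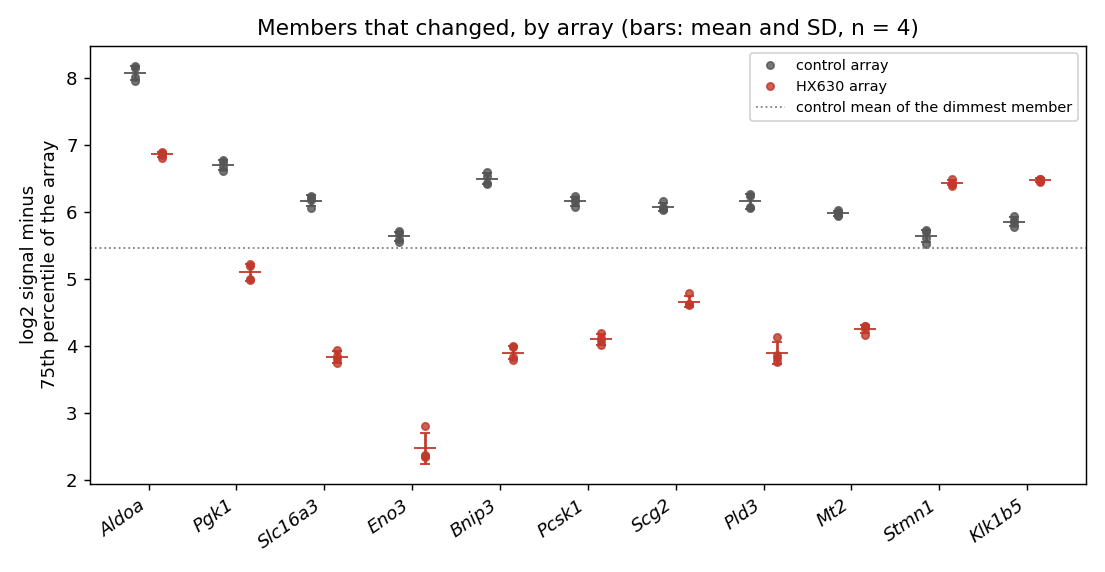
Levels of 11 members that changed, as log2 signal minus the 75th percentile, for each control array (grey) and HX630 array (red), with the mean and SD of 4. The dotted line is the control mean of the dimmest member; the HX630 points of Stmn1 and Klk1b5 lie above the control points, those of the other 9 below, and Aldoa alone among these 9 stays above the line.

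The respiratory chain and ATP synthase gave the largest list, with 29 members, and none of them was called. Their log2 fold changes ran from −0.47 to 0.28 with a median of −0.30. At an adjusted p below 0.01 with any fold, 20 were lower and 1 higher, where 27.2% and 24.2% of all genes were. Ndufa1, a subunit of complex I, had levels of 6.24, 6.19, 6.005 and 6.09 in control cells and 5.71, 5.64, 5.65 and 5.64 with HX630 (−0.47, adjusted p = 0.000193). Cox8a, a subunit of cytochrome c oxidase, changed by −0.47 and Cox7b of the same complex by −0.43, both with groups that did not overlap. The one higher member was Atpif1, the inhibitor of the ATP synthase, with 6.19, 6.17, 6.01 and 6.10 against 6.36, 6.37, 6.46 and 6.38 (0.28, adjusted p = 0.00197).

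By complex, 11 of 37 tested genes of complex I were members, 3 of 9 of complex III, 6 of 12 of complex IV and 9 of 18 of ATP synthase, while none of the 4 genes of complex II was. All 6 members of complex IV were lower, between −0.47 and −0.30. Over the 80 tested genes of the list none was called either, and their median was −0.24. The list leaves out Cox8b, another cytochrome c oxidase subunit gene. Cox8b ranked 273 and was called lower, at −2.88 (limma, adjusted p = 4.19e-07). The shift was small enough to move with the scale: 27 of the 29 members had a negative fold change in the 75th percentile scaling, 18 after quantile normalization (median −0.07) and 19 with spike-in scaling (median −0.10).

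Translation factors held 14 members, with log2 fold changes between −0.33 and −0.11, none called. The 3 with the largest changes were Eif3c and Eif3k, subunits of the initiation factor that binds the small ribosomal subunit, and Eif4ebp1, the repressor of the cap-binding protein, at −0.33, −0.32 and −0.32. Eef2, the translocation factor, read 6.11, 6.07, 5.97 and 5.95 against 5.84, 5.77, 5.82 and 5.74, and Eef1a1, which brings aminoacyl-tRNA to the ribosome, read 5.55, 5.82, 5.75 and 5.999 against 5.40, 5.55, 5.79 and 5.93. The groups were apart in the first and overlapped widely in the second, whose SDs of 0.19 and 0.24 were among the larger ones. All 14 were negative in the 75th percentile scaling, and only 6 after quantile normalization, where their median was 0.03.

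**Figure D4:**
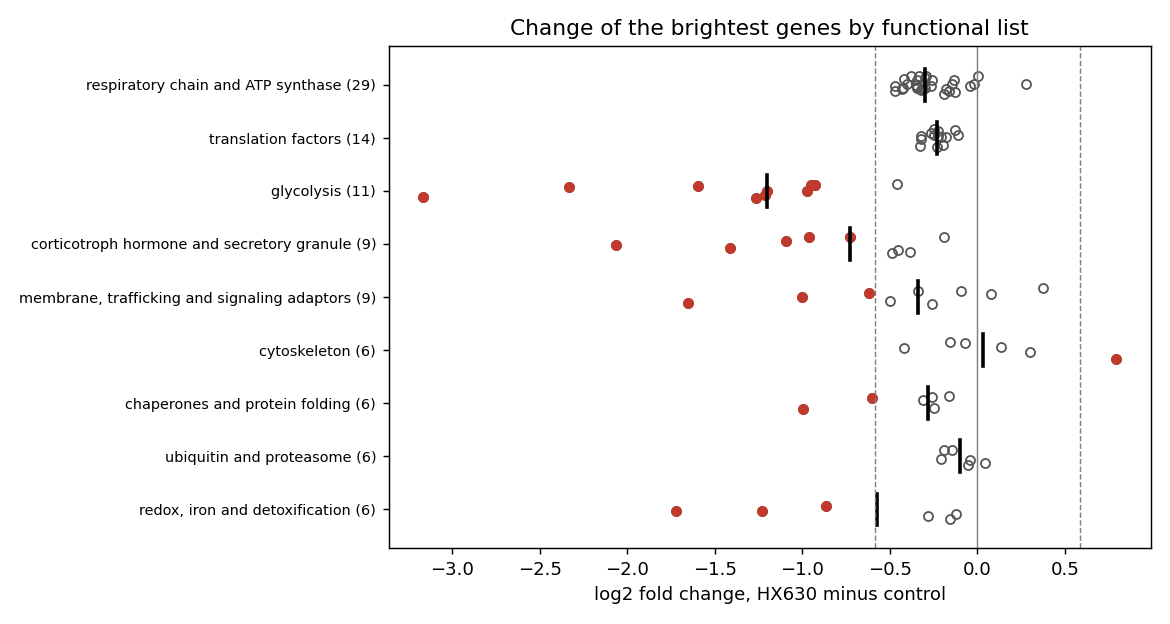
Log2 fold change with HX630 of each member, by functional list (number of members in brackets). Filled red points passed both thresholds (adjusted p 0.01, fold change 1.5), open points did not, the short black line is the median of the list and dashed lines mark the 1.5-fold threshold; glycolysis has the lowest median, at −1.20, and the cytoskeleton list holds the one called rise, Stmn1.

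The cytoskeleton differed in having a member that rose. Stmn1, or stathmin, which destabilizes microtubules, had levels of 5.72, 5.71, 5.52 and 5.61 in control cells and 6.39, 6.42, 6.43 and 6.48 with HX630. It rose 1.73-fold (log2 fold change 0.79, SE 0.0523, adjusted p = 7.56e-06), and its other probe by 0.81. The α-tubulin gene Tuba1b had 6.98, 6.98, 6.82 and 6.87 against 7.22, 7.22, 7.23 and 7.17, a difference of 0.30 (adjusted p = 0.00083) that lay below the fold threshold and reached 0.60 after quantile normalization. Actg1, or γ-actin, changed by −0.42 (adjusted p = 9.87e-05). Over the 52 tested genes of the list 14 rose and 3 fell, with a median of 0.22, where 8.42% and 11.2% of all genes did. The other called rise was that of Klk1b5, a glandular kallikrein, with 5.87, 5.94, 5.83 and 5.78 against 6.50, 6.45, 6.49 and 6.46 (1.54-fold, adjusted p = 9.12e-06); kallikrein genes are near-identical, and the probe may read several of them.

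Of 6 members of the redox and detoxification list, 3 fell. Mt2 and Mt1 are metallothioneins, which bind zinc and copper. Mt2 went from 5.95, 6.03, 5.93 and 5.995 to 4.17, 4.30, 4.29 and 4.25, or 30.3% of the control signal (log2 fold change −1.72, adjusted p = 1.22e-07). Mt1 went from 6.45, 6.49, 6.39 and 6.44 to 5.21, 5.27, 5.26 and 5.11, or 42.6%. Both genes had an SD of 0.043 among the control arrays and no overlap between groups. Mif, a cytokine with tautomerase activity, changed by −0.86 and, after quantile normalization, by −0.54, which is no longer past the fold threshold. Sod1, Fth1 and Ftl1, for superoxide dismutase and the ferritin chains, were not called. Over the 33 tested genes of the list 7 fell and none rose, beside 11.2% called lower and 8.42% higher over all genes tested.

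Of the list of membrane, trafficking and signaling genes, 3 of 9 members fell and none rose. Ctsl, or cathepsin L, had levels of 5.98, 5.97, 5.83 and 5.86 in control cells and 4.45, 4.23, 4.12 and 4.24 with HX630, a 3.14-fold decrease (adjusted p = 1.12e-06). Cst3, or cystatin C, an inhibitor of cathepsins, fell to 50.0% of its control signal (adjusted p = 3.44e-07). Lamp1, a lysosomal membrane protein, changed by −0.62, and fell short of the fold threshold in 4 of the other scalings and corrections. Calm2, a calmodulin gene, was higher by 0.38 (adjusted p = 3.72e-05), below the fold threshold. Of the 64 tested genes of the list 16 fell and 1 rose, where 11.2% and 8.42% of all genes tested did.

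Of the chaperones, Pdia6, a protein disulfide isomerase of the endoplasmic reticulum, had levels of 5.54, 5.52, 5.39 and 5.40 against 4.57, 4.43, 4.45 and 4.42 (1.99-fold lower, adjusted p = 2.34e-06). Its other probe, with a control mean of 1.56, changed by only −0.40, below the fold threshold. Hspa5, the chaperone BiP, changed by −0.60 (adjusted p = 6.82e-06) with the groups apart, and was below the fold threshold without control replicate 1, at −0.58, as well as in 4 of the other scalings and corrections. The cytosolic Hspa8 varied widely among its replicates, with 6.14, 6.35, 6.27 and 6.68 against 5.78, 5.92, 6.18 and 6.32, and its difference of −0.31 (adjusted p = 0.116) did not pass the test, with overlapping groups. Of the whole list 7 of 41 tested genes fell and none rose, beside 11.2% called lower and 8.42% higher over all genes tested.

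None of the 6 members of the ubiquitin and proteasome list was called. The largest change among them was that of the proteasome subunit Psmd4, at −0.21. Hnrnpa3 at 0.10 was the one member in the list of RNA binding and splicing genes, and the chromatin list held Ran at −0.02 and the histone variant gene H2az1 at 0.03. The list of cholesterol synthesis had no member, while 18 of its 24 tested genes rose, with a median of 0.83, beside 8.42% of all genes.

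The 9 members that are common reference genes ranged widely. Actb, or β-actin, read 7.15, 7.25, 7.005 and 7.12 against 7.03, 7.07, 7.08 and 7.07, and its difference of −0.07 (adjusted p = 0.296) lay within the spread of the control arrays; it was 0.23 after quantile normalization and 0.13 with spike-in scaling. The log2 fold changes of Eef1a1, Ubb, Eef2 and Ppia were −0.11, −0.19, −0.23 and −0.26, and those of Eef1a1 and Ubb turned positive with both of these scalings, and that of Ppia with the first. Gapdh at −0.46 and Tuba1b at 0.30 differed between groups in opposite directions. Pgk1, at 33.1% of its control signal, was the one called.

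Of the 101 members outside every list, 14 fell and 1 rose, beside 11.2% lower and 8.42% higher over all genes tested. Bnip3, a mitochondrial protein of mitophagy, had levels of 6.42, 6.60, 6.53 and 6.43 in control cells and 4.00, 3.83, 3.98 and 3.79 with HX630, a 6.04-fold decrease (log2 fold change −2.59, SE 0.0649, adjusted p = 1.22e-07). The brightest of its other probes shared this fall, at −2.65. Pld3, a lysosomal nuclease of the phospholipase D family, went from 6.27, 6.24, 6.05 and 6.07 to 4.14, 3.82, 3.86 and 3.76, or 20.8% of the control signal. Both left the 200 brightest, for ranks 824 and 832. Prkar1a, the regulatory subunit that holds protein kinase A inactive, had 6.91, 6.93, 6.67 and 6.83 against 5.11, 4.91, 4.90 and 4.86, or 27.0%, and its other probe changed by −1.58.

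The set of brightest genes was partly replaced. Of the 200 members, 161 were also among the 200 brightest genes of the HX630 arrays, and 39 left, of which 26 were called lower. The farthest moves were those of Eno3, Pld3, Bnip3, Slc16a3 and Pcsk1, to ranks between 700 and 2400. Of the 37 members that fell, 11 stayed. Among the 39 genes that entered, 11 were called higher, and the highest placed were the tubulins Tuba1a (rank 264 to 67, log2 fold change 1.01) and Tubb5 (202 to 79, 0.66), the stearoyl-CoA desaturase Scd2 (227 to 94, 0.62), Fdps of cholesterol synthesis (338 to 97, 0.99) and the histone H3.3 gene H3f3a (314 to 111, 0.77). Both counts follow from the rule and carry no test.

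The share of the summed processed signal held by the members was 13.9, 13.8, 13.0 and 13.4% on the control arrays and 12.2, 12.2, 12.3 and 12.2% on the HX630 arrays. Glycolysis members held 0.955% ± 0.0238 (SD, n = 4) in control cells and 0.506% ± 0.00956 with HX630. Members of the hormone and granule list held 0.938% and 0.698%, and those of the cytoskeleton list 0.382% and 0.454%. Respiratory chain members held 1.52% ± 0.0393 and 1.42% ± 0.0164, and translation factors 0.948% ± 0.0266 and 0.913% ± 0.00384. In these 5 lists the shares of the groups did not overlap on any array; as the members were chosen on the control arrays, the shares are given without a test.

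**Figure D5:**
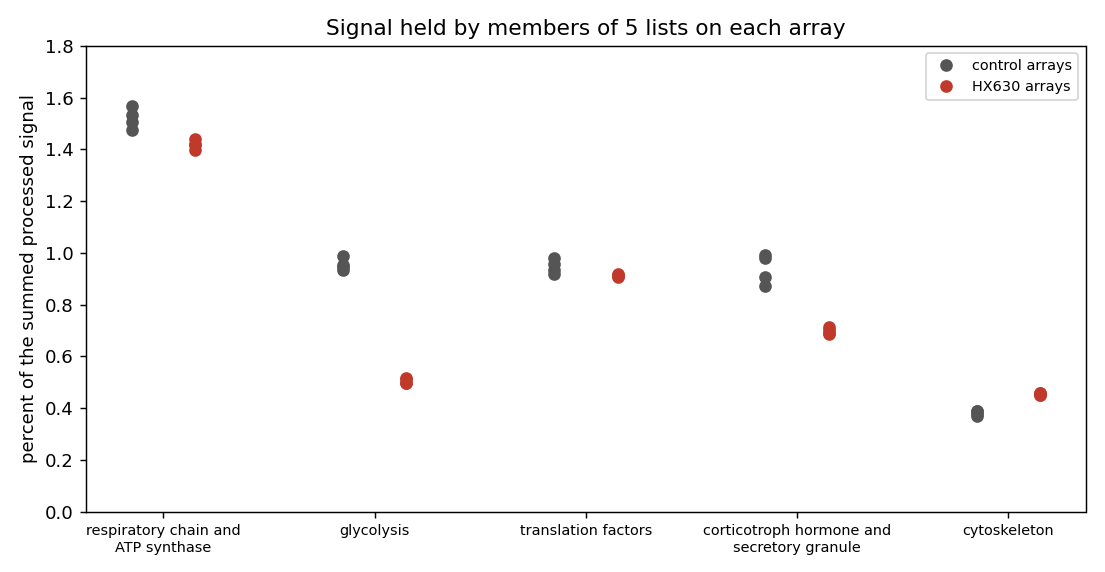
Percent of the summed processed signal held by the members of 5 functional lists on each control array (grey) and HX630 array (red). The glycolysis share is 0.955% on average in control cells and 0.506% with HX630, and the cytoskeleton share is higher with HX630.

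Over the whole array, the share of genes called lower was largest among the brightest. It was 18.5% for ranks 1 to 200, 12.8% for ranks 201 to 1000, 9.6% for ranks 1001 to 5000, 9.76% for ranks 5001 to 10000 and 13.5% beyond. The share called higher was 1% for the members and 11.9% for the dimmest genes. These ranks come from the control arrays as well and favor falls at the top in the same way.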

How the data were processed

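The authors scanned 8 single-color Agilent arrays and ran Feature Extraction 10.7.3.1, and the deposited files hold for each spot a processed intensity after background subtraction and detrending. A deposited table of log2 values for these arrays matched the log2 processed intensity minus the 75th percentile of each array and served as an alternative. Control spots and outlier spots were left out, and spots of one probe were averaged, giving 39429 probes. A probe well above background on at least 4 arrays was tested (28552 probes) with lmFit and eBayes (R 4.3.3, limma 3.58.1), with Benjamini-Hochberg adjustment. Calls needed more than a 1.5-fold change and an adjusted p under 0.01; the methods give these values for a t-test without a stated adjustment. The labels do not say that replicates came from separate cultures, so p-values measure the spread between these samples, and the number of arrays limits the precision. Symbols came from a RefSeq table (25520 of 26107 curated coding probes matched). Genes named are the 10 brightest, the largest rises and falls, up to 3 of each list, those around rank 200, the farthest movers in rank and the reference genes; others, such as Prkar1a, Ldha and Cpe, were named after their values were seen, and 2 are not reported here. The members and the 13 lists were chosen with earlier results of these data known. Alternatives changed the scaling, background correction, filter, test, replicates and choice of members. The fit was tested on simulated data. Protein lengths were not compared, and normexp used the median spot intensity.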

Additional observations from a re-analysis of the deposited data

Results flagged for a closer look

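In 6 of 112 groups of 4 arrays, 1 array stood apart from the other 3 by more than Dixon's 95% limit allows, where chance gives about 1 in 20 (5.6). The number is the gap to the nearest array divided by the range of the group. On HX630 array 1, Eno3 was higher (2.81 against a mean of 2.36 for the others, ratio 0.956), as were Scg2 (4.79 against 4.62, 0.854) and Ndufa1 (5.71 against 5.64, 0.841). Fdps, a gene that entered the brightest with HX630, was lower on HX630 array 1 (5.85 against 5.96, 0.902) and on control array 1 (4.73 against 5.02, 0.863). Eaf2 was higher on control array 4 (5.51 against 5.45, 0.876). Without HX630 replicate 1 the fold change of Eno3 was the lowest of its leave-one-out values, at −3.28, and stayed called.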

How the results depend on the processing

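The number of members called lower (37) stayed between 36 and 39, that called higher (2) between 2 and 3, the median log2 fold change between −0.28 and −0.22, and the overlap with the brightest HX630 genes between 161 and 162 when single replicates were left out. Counts lower and higher moved to 21 and 7 with members by all 8 arrays, 10 and 13 by the HX630 arrays (median −0.13), 20 and 0 for the 100 brightest, 65 and 8 for the 400 brightest and 103 and 9 without the fold threshold. The count higher moved to 7 after quantile normalization, 4 with spike-in scaling, 4 and 1 with held-out controls and 1 with Rpl and Rps genes kept, where 29 were lower. The median reversed to 0.0035 after quantile normalization and moved to −0.16 with median and −0.049 with spike-in scaling. A shift of scale moves every gene alike, so the members' median was necessarily 0.21 below that of all genes under each such shift. It was 0.11 below with normexp and 0.024 below after quantile normalization. The other settings kept the counts of members lower within 1.5 times; the overlap, recomputed under a few settings only, was 161 with quantile normalization and the deposited log2 values and 168 with normexp. The cause of each move beyond the change of members or threshold was not tested.

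Single genes reversed as follows, none of them called before. After quantile normalization the values were 0.23 for Actb, 0.27 for Ran, 0.18 for Slc3a2, 0.0701 for 2610028H24Rik, 0.11 for Cfap74, 0.10 for Eef1a1, 0.0024 for Exosc2, 0.016 for Ppia, 0.010 for Psmd4, 0.0597 for Slc10a1 and 0.069 for Ubb. With spike-in scaling they were 0.022 for 2610028H24Rik, 0.13 for Actb, 0.066 for Cfap74, 0.085 for Eef1a1, 0.17 for Ran, 0.19 for Slc3a2 and 0.0066 for Ubb, and with median scaling 0.017 for Actb, 0.063 for Ran and 0.079 for Slc3a2. Slc3a2 was at 0.0091 with the percentile over detected probes, and Ran at 0.0027 with normexp and 0.21 as the mean of its probes. Leaving out single replicates gave Slc3a2 −0.033 to 0.013, Ran −0.065 to 0.021 and H2az1 −0.016 to 0.0596.

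After the data had been seen, 2 settings were added. With control replicates 1 and 2 left out together, 35 members were lower and 3 higher (median −0.20), and Actb at 0.0001 and Ran at 0.0698 reversed. Without the 32 members whose other probe was over 16-fold dimmer, 35 were lower and 2 higher. Whether replicate numbers pair the samples could not be decided. Same-numbered samples deviated together with correlations of −0.009 to 0.523, over 0.1 in 3 of the 4 pairs but not in all. Differently numbered samples had correlations of −0.407 to 0.264, and 2 of 4 pairs were best with their own number. With the replicate block 37 members were lower and 2 higher, with a median of −0.25.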

Other observations

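Some families among the brightest genes were grouped after their values were seen, and a few of their genes also stand in the lists above. The 9 H2A histone symbols, among them the variant gene H2az1, had control means between 6.74 and 7.20 and log2 fold changes between −0.07 and 0.10, with none called. Most of the others are near-identical genes whose probes may share signal. A group of 11 members known from the ATF4 pathway of amino acid stress, among them Atf4 itself and the asparagine synthetase gene Asns, ranged from −1.45 to −0.0027, and 1 was called: Nupr1, a small chromatin protein of the stress response, at 36.7% of its control signal. Atf4 had levels of 6.98, 6.99, 6.92 and 6.96 in control cells and 6.43, 6.50, 6.69 and 6.61 with HX630, a 1.32-fold difference (limma, adjusted p = 0.000652) below the fold threshold. Asns, at 6.69, 6.76, 6.54 and 6.68 against 6.53, 6.54, 6.56 and 6.60, overlapped between groups.

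Members outside the lists that fell included the lysosomal enzymes Gaa, the acid alpha-glucosidase, at 41.7% of its control signal and Ctsa, or cathepsin A, at 54.6%. The other probe of Ctsa, with a control mean of −3.15, changed by only −0.34, below the fold threshold. That of Gaa changed by −1.58. Other such members were the growth-suppressing zinc finger gene Plagl1 at 39.1%, the ubiquitin ligase gene Rnf114 at 38.8%, Tmed3 of vesicle transport at 41.8%, Chchd10 of mitochondria at 49.0%, and Bex1 at 57.0%. Members under the fold threshold on the rising side were Dynlt1c, a dynein light chain symbol with near-identical copies, at 1.49-fold, and Mtch1, a mitochondrial carrier homolog, at 1.38-fold. Dynlt1c was called higher with quantile, median, detected-percentile and spike-in scaling, and Mtch1 with quantile and spike-in scaling. Of the 17 called members with another tested probe, 14 were called in the same direction by the brightest such probe. The other 3, Gnas, Pdia6 and Ctsa, were not called by it, and none was called the opposite way.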
